A study of Komagataella phaffii with 32 samples.

Results

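In the yeast Komagataella phaffii, the response of mRNA levels to alkaline medium was compared between a rim101 mutant and the wild type (WT), averaged over 3 times after the pH was raised. The contrast was the mean change since pH 5.5 in rim101 minus the mean change since pH 5.5 in WT, each time with the same weight. It used all 20 libraries of these strains, out of 32 in the series. The rim101 libraries came from strain PJA-007, whose genotype label is rim101_117, with n = 2 at each time. The WT libraries came from strain X-33, with n = 3 at each time, while the series text names GS115. A crz1 mutant, PJA-001 with the genotype label crz1_559 and n = 3 at each time, served for a side-by-side reading and a direct test between the mutants. The crz1 libraries also entered the choice of genes tested and the estimate of spread behind every test. All strains grew in rich medium with glycerol. Cells were sampled once at pH 5.5 (time 0, T0) and then in buffered medium at pH 8.0 after 15, 30 and 60 min, written T15, T30 and T60. No pH 5.5 library accompanied the later times, so pH, time since resuspension and growth cannot be told apart. Each mutant is represented by 1 strain.

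Rim101 is the yeast member of the PacC family of zinc-finger transcription factors. In Saccharomyces cerevisiae, alkaline pH is sensed by plasma membrane proteins that signal through an arrestin-like protein, Rim8, and the ESCRT machinery to a protease, Rim13, which trims Rim101 into its active form. There, Rim101 acts largely as a repressor, also of the repressor gene NRG1, so that genes for ion export and wall remodelling are released. Alkaline medium also weakens the proton gradient that drives many nutrient carriers and makes phosphate, iron, zinc and copper harder to take up.

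The values were RPKM, the reads per kilobase of gene scaled by library depth, as the authors computed them. The reads behind the unit were estimated from the spacing of low values at between 5.58 and 16.54 M per library (M, reads in units of 1e6; median 9.065 M) in the 18 libraries with a single spacing. Between 837 and 1423 genes per library were listed at 0, and replicate libraries correlated across genes with Pearson r between 0.843 and 0.985. In 6 libraries (rim101 T15 replicate 2, both rim101 T30 libraries, WT T30 replicate 1 and WT T60 replicates 1 and 2) the median gene stood at 46.63 to 56.63 RPKM, against 21.01 to 35.41 RPKM in the other 14. Some of the 6 correlated more with each other across groups than with a replicate. For rim101 T15 replicate 2, r was 0.867 with replicate 1 and 0.93 with WT T30 replicate 1. For WT T60 replicate 1, r was 0.843 with replicate 3 and 0.941 with WT T30 replicate 1. The count of genes called on the averaged difference is therefore also given without those 6. Replicates are named in the labels as separate samples, with nothing on whether they came from separate cultures, so the p-values measure only the spread between these libraries.

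Differences are on the log2(RPKM + 1) scale, rim101 minus WT, and a gene was called at a Benjamini-Hochberg adjusted p under 0.05 by limma and at least a 2-fold difference. Where a group was listed at 0, the size of the difference depends on the added 1 RPKM and is not a fold change. Where 1 strain was at 0 in all of its pH 8.0 libraries, only levels and the adjusted p are given.

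The averaged difference was called for 32 of 4226 genes tested, 0.757% of them, with 15 lower (0.355%) and 17 higher (0.402%) in rim101. The genes that responded less in rim101 included the sodium-coupled phosphate carrier gene PHO89, the zinc genes ZRT1 and ZPS1, the regulator genes MIT1 and RIM101, the wall enzyme gene GAS1-2 and the sodium pump gene ENA2. The genes that responded more in rim101, or fell less, included both PHO84 phosphate carrier genes, the iron genes FRE3, FRE2-1 and FET3, and GAS1-1. Every gene with an adjusted p under 0.05 also passed the 2-fold minimum, and 175 genes (4.14%) had an unadjusted p under 0.05. Without the 6 libraries of higher median, over T15 and T60 alone, 19 genes were called, 8 lower and 11 higher, and 15 of the 19 were among the 32. That fit has 1 WT library at T60 and 1 rim101 library at T15, which were assumed to vary like the other groups. It also leaves out every T30 library and the crz1 libraries of higher median. Below, a fit without the libraries of higher median is this one, so a call lost in it cannot be put down to those libraries alone. With median-ratio scaling the split was 10 lower and 16 higher, and with quantile normalization it was 8 lower and 18 higher. With WT and rim101 libraries alone, and so no crz1 library in the fit, it was 10 lower and 15 higher. The count of lower genes was 26 without WT T0 replicate 2, 9 without rim101 T0 replicate 1 and 7 without rim101 T0 replicate 2.

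Averaging narrowed the error. The median standard error over genes was 0.58 for the averaged difference and 0.71 for the difference at any single time. The same fit called 19 genes at T15 (0.45%), 33 at T30 (0.781%) and 24 at T60 (0.568%), and these 3 comparisons share their T0 libraries. The median difference of all genes was -0.02 averaged, 0.18 at T15, 0.19 at T30 and -0.46 at T60. The T60 shift of all genes is to be read beside each T60 value below.

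**Figure D1:**
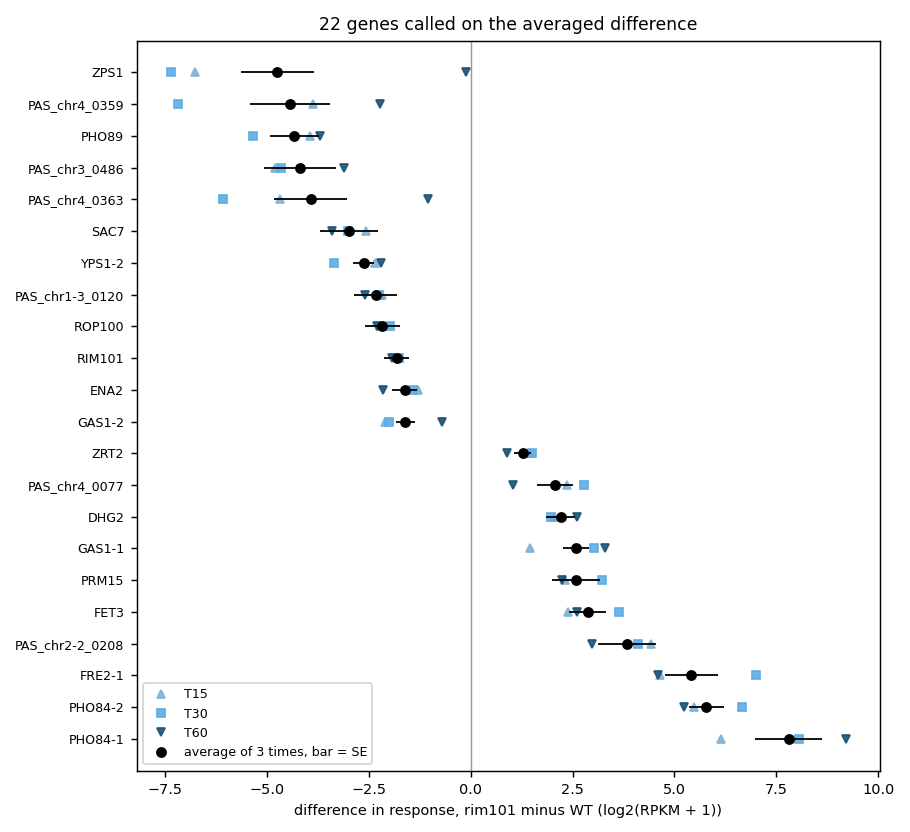
Differences in response between rim101 and WT (horizontal axis, log2(RPKM + 1), rim101 minus WT) for the called genes in which neither strain was at 0 in all of its pH 8.0 libraries. Circles are the average of 3 times with its standard error, and triangles and squares are the single times. PHO84-1 lies farthest right at 7.80, and the T60 value of ZPS1 lies near 0 at -0.11 while its T15 and T30 values are -6.78 and -7.36.

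The averaged difference has 2 ends: the strain difference over the pH 8.0 libraries and the strain difference at T0. Over pH 8.0 the strains differed in 103 genes (2.44%), 43 lower (1.02%) and 60 higher (1.42%) in rim101. At T0 they differed in 5 genes (0.118%), PHO89, SIT1-1 and PAS_chr4_0077 lower and ROP100 and TPC1 higher in rim101. The T0 count depended on the fit and was 0 with a pseudocount of 5. It was 3 without WT T0 replicate 3, rim101 T0 replicate 2, either rim101 T60 library or any 1 WT library at pH 8.0. For 26 of the 32 genes the rim101 and WT libraries at pH 8.0 did not overlap, against 1.51% of all genes tested, and these libraries are part of the contrast that called them. The responses of each strain are likewise parts of the contrast. All 15 genes called lower had risen in WT (25.5% of all genes rose there), and ENA2 and ROP100 also rose in rim101 (7.97% of all genes). Of the 17 called higher, 9 fell in WT (5.49% of all genes fell there) and 10 rose in rim101. In bulk RNA, fewer cells with a transcript and less transcript per cell cannot be told apart.

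**Figure D2:**
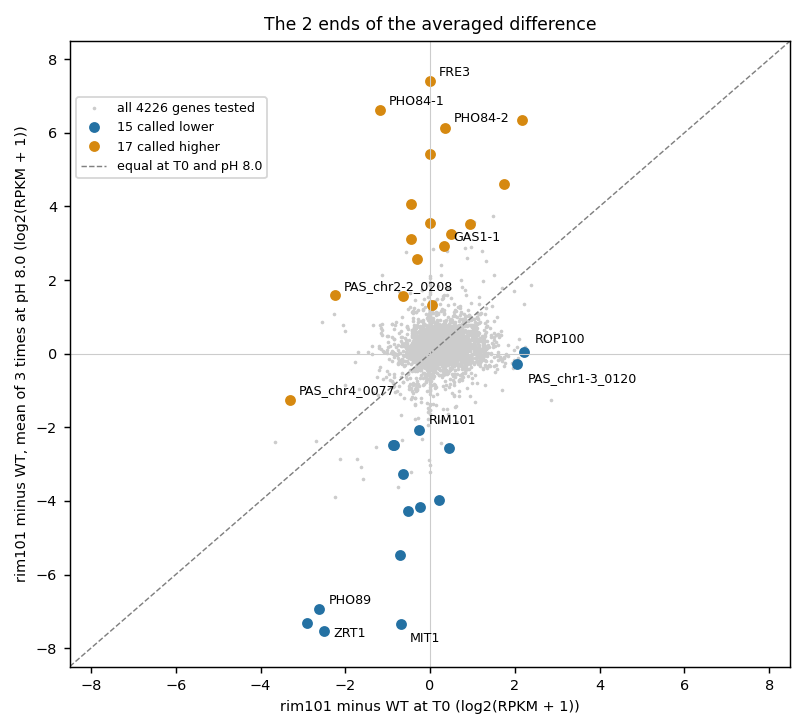
Strain difference at T0 (horizontal) against the mean strain difference over 3 times at pH 8.0 (vertical), both rim101 minus WT on the log2(RPKM + 1) scale. Grey points are all 4226 genes tested and coloured points the 32 called. Most called genes lie near 0 at T0 and far from 0 at pH 8.0. ROP100, PAS_chr1-3_0120 and PAS_chr4_0077 are among the exceptions, with T0 differences of 2.22, 2.06 and -3.31. Others are PAS_chr4_0359 at -2.90, PHO89 at -2.61, ZRT1 at -2.49, PAS_chr2-2_0208 at -2.25 and PAS_chr2-1_0270 at 2.17.

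The gene under study, RIM101 (PAS_chr3_0625, chromosome 3, 1185885 to 1187711, minus strand), did not change detectably in rim101 (0.06, limma adjusted p = 0.875) and rose in WT (1.87, adjusted p = 1.39e-07). It stood at 25.9 and 31.4 RPKM at T0 and between 24.3 and 42.1 RPKM (median 28.5) at pH 8.0 in rim101, against 45.7, 20.5 and 42.7 RPKM at T0 and between 102.6 and 151.5 RPKM (median 128.5) at pH 8.0 in WT. The strains overlapped at T0, and every WT library at pH 8.0 lay above every rim101 library. The averaged difference was -1.82 (SE 0.30, limma adjusted p = 0.000907), with -1.76, -1.76 and -1.93 at T15, T30 and T60. RIM101 lost its call over T15 and T60 alone without the libraries of higher median, at a difference of -1.77. The labels do not say which part of the gene is altered, so its RPKM does not check the mutation.

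Of the 6 tested genes of the Rim pathway list, RIM101 alone was called on the averaged difference, and the list median was 0.29. NRG1, the zinc-finger repressor gene that Rim101 represses in S. cerevisiae, was at 338 and 668 RPKM at T0 and between 304 and 506 RPKM at pH 8.0 in rim101, against 214, 145 and 153 RPKM at T0 and between 13.7 and 66.4 RPKM at pH 8.0 in WT. The strains did not overlap at either pH. NRG1 was called over pH 8.0 (3.75, limma adjusted p = 1.25e-05) and not on the averaged difference (2.25, SE 1.00, adjusted p = 1). RIM8, which encodes the arrestin-like step, was between 12.7 and 29.6 RPKM at pH 8.0 in rim101 and between 0 and 5.51 RPKM in WT. Its pH 8.0 difference was 2.79 (adjusted p = 0.00105), and its averaged difference was 1.58 (adjusted p = 1). RIM20, RIM9 and RME1 were called at neither end, and none of the 12 ESCRT genes tested was called on the averaged difference.

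Phosphate carrier genes differed in opposite directions. PHO89 encodes the sodium/phosphate cotransporter, which in yeast works at alkaline pH, while PHO84 encodes the high-affinity proton/phosphate symporter. PHO89 (PAS_chr2-1_0235, chromosome 2, 442707 to 444437, plus strand) was at 26.0 and 24.5 RPKM at T0 and between 11.3 and 57.2 RPKM (median 27.4) at pH 8.0 in rim101. The WT libraries held 68.5, 264.6 and 222.3 RPKM at T0 and between 2001 and 4953 RPKM (median 3621) at pH 8.0. All rim101 libraries were low, at both pH values, and WT was already higher at T0 (rim101 minus WT -2.61, limma adjusted p = 0.0457). That T0 call lay close to the threshold and did not hold with a pseudocount of 5. The averaged difference was -4.33 (SE 0.60, adjusted p = 0.000124), from a WT rise of 4.37 and a rim101 change of 0.05 that did not pass (adjusted p = 0.953). PHO89 kept its call in every fit without 1 library. It lost the call over T15 and T60 alone without the libraries of higher median, at a difference of -3.79. With all libraries the difference was -3.94 at T15 and -3.70 at T60.

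PHO84-1 (PAS_chr4_0337, chromosome 4, 689274 to 691001, minus strand) moved the other way. In rim101 it was at 41.0 and 23.9 RPKM at T0 and between 1018 and 3972 RPKM (median 1998) at pH 8.0, against 53.8, 66.7 and 106 RPKM at T0 and between 0 and 108.9 RPKM (median 32.7) at pH 8.0 in WT. Both rim101 libraries were below the WT libraries at T0 (-1.18, adjusted p = 1 by limma), and at pH 8.0 every rim101 library was above every WT library. PHO84-1 had the largest averaged difference of the genes with a log2 value given, at 7.80 (SE 0.82, limma adjusted p = 1.62e-06), where rim101 rose by 5.98 and WT fell by 1.83. By time the difference was 6.13 at T15, 8.06 at T30 and 9.21 at T60.

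PHO84-2 (PAS_chr3_0141, chromosome 3, 282658 to 284424, minus strand) began equal and was lost in WT. It was at 214.1 and 187 RPKM at T0 in rim101 and 196.4, 118.7 and 163.9 RPKM in WT. In rim101 its mean was 469 RPKM at T15, 128 RPKM at T30 and 47.0 RPKM at T60, while in WT it was 7.28 RPKM at T15 and 0 in all libraries at T30 and T60. The rim101 level thus peaked at T15 and then declined, and no rim101 library overlapped a WT library at pH 8.0. The averaged difference was 5.79 (SE 0.44, limma adjusted p = 5.91e-09). The rim101 change averaged over times did not pass (-0.50, adjusted p = 0.308), while the WT fall did (-6.29, adjusted p = 1.05e-13). Whether reads were shared between the numbered copies of PHO84, GAS1, YPS1, FET4, FRE2 and YOR1 was not tested.

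Of the 18 phosphate genes tested, PHO89 was called lower and PHO84-1 and PHO84-2 higher, and the list median of 0.15 was close to that of all genes. The polyphosphate gene VTC2 averaged 367 RPKM at T30 in rim101 and 259 RPKM in WT. It rose in both strains, by 2.86 and 2.52, with a difference of 0.34 (SE 0.38, limma adjusted p = 1). PHO81, an inhibitor of the Pho80-Pho85 kinase in S. cerevisiae, rose by 2.13 in rim101 and 2.97 in WT, with a difference of -0.85 (adjusted p = 1), and was at 9.20 and 12.4 RPKM at T60 in rim101 against 29.2, 35.4 and 23.6 RPKM in WT. PHO5, an acid phosphatase gene, lay just outside the threshold: its difference was 1.62 (SE 0.39, adjusted p = 0.0522), with means of 70.0, 333 and 121 RPKM at T15, T30 and T60 in rim101 and 43.0, 70.7 and 41.1 RPKM in WT. PHO2, which encodes a homeodomain activator of phosphate genes in S. cerevisiae, was lower over pH 8.0 (-1.49, adjusted p = 0.000591), with an averaged difference of -1.90 (adjusted p = 0.154).

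**Figure D3:**
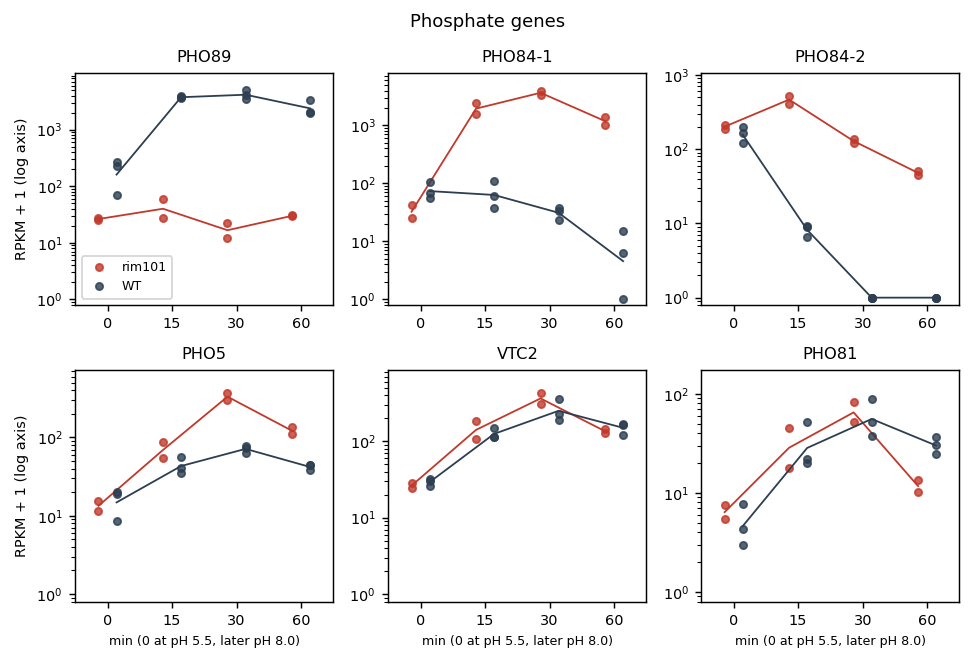
Levels of 6 phosphate genes in every rim101 and WT library (vertical axis, RPKM + 1 on a log axis; horizontal axis, time in min, with T0 at pH 5.5 and the rest at pH 8.0). Points are libraries and lines join the group means on the log2 scale. PHO89 stays under 58 RPKM in rim101 and is at 2001 RPKM or more in every WT library at pH 8.0, PHO84-1 shows the reverse, VTC2 overlaps between the strains at every time, and PHO81 overlaps at each time except 60 min, where it is lower in rim101.

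Among zinc genes, ZRT1 and ZPS1 were called lower and ZRT2 higher. ZRT1 encodes the high-affinity zinc carrier in S. cerevisiae, ZRT2 the low-affinity one, and ZPS1 a zinc-regulated surface protein. ZRT1 (PAS_chr3_0516, chromosome 3, 989382 to 990959, minus strand) was listed at 0 in all rim101 libraries at both pH values. In WT it was at 0, 16.3 and 9.28 RPKM at T0 and between 78.7 and 349 RPKM (median 228) at pH 8.0. The difference was called with a limma adjusted p of 0.00996. It lost that call without rim101 T0 replicate 1 or replicate 2, and its highest adjusted p in those fits was 0.0927. It also lost it without the libraries of higher median (adjusted p = 0.667), with a pseudocount of 0.1 and with either other scaling, where the adjusted p did not exceed 0.667.

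ZPS1 (PAS_chr3_0517, chromosome 3, 991518 to 992378, plus strand) lies next to ZRT1 on the opposite strand, with 558 bases between the genes. At T0 it was at 0.17 and 12.3 RPKM in rim101 and 2.36, 10.5 and 6.06 RPKM in WT. At T15 and T30 it was at 0 in all rim101 libraries, while the WT means were 179 and 279.6 RPKM. At T60 the means drew together, at 15.5 RPKM in rim101 and 30.6 RPKM in WT. The averaged difference was -4.75 (SE 0.90, limma adjusted p = 0.00469). It was -6.50 without rim101 T0 replicate 1 and -2.996 without rim101 T0 replicate 2. The call was lost without rim101 T0 replicate 2 (adjusted p = 0.261), with a pseudocount of 0.1 and without the libraries of higher median (-3.85, adjusted p = 0.751).

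ZRT2 (PAS_chr4_0516, chromosome 4, 1009767 to 1010855, plus strand) differed in the other direction and by less. It was at 209.5 and 252.4 RPKM at T0 and between 155.6 and 481 RPKM (median 325) at pH 8.0 in rim101, against 183, 292.2 and 210.6 RPKM at T0 and between 76.8 and 221.2 RPKM (median 116) at pH 8.0 in WT. The strains overlapped at T0 and in part at pH 8.0. The difference was 1.28 (SE 0.21, limma adjusted p = 0.000956), where WT fell by 0.94 with a rim101 change of 0.34 that did not pass (adjusted p = 0.176). It lost the call with median-ratio scaling, with quantile normalization and without the libraries of higher median (1.22, adjusted p = 0.184). Of 12 copper and zinc genes tested these 3 were called, and the list median was -0.32. The copper carrier gene CTR1 rose in both strains, by 2.98 in rim101 and 2.62 in WT, and its difference of 0.36 did not pass (adjusted p = 1).

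Of the iron genes, FRE3, FRE2-1 and FET3 were called higher in rim101 and FET4-1 lower. FRE genes encode ferric reductases, FET3 encodes the multicopper oxidase of the high-affinity iron carrier, FTR1 its permease and FET4 a low-affinity carrier of iron and other metals. FRE3 (PAS_chr4_0240, chromosome 4, 486364 to 488484, minus strand) was listed at 0 in all 12 WT libraries and both rim101 T0 libraries. In rim101 at pH 8.0 it was between 53.6 and 446 RPKM (median 145), with a mean of 391 RPKM at T30. The difference was called with a limma adjusted p of 2.69e-11 and in all fits without 1 library and all alternatives. FRE2-1 (PAS_chr4_0399, chromosome 4, 797604 to 799730, minus strand) was at 0 in every T0 library. At pH 8.0 it was between 18.4 and 188 RPKM (median 128) in rim101 and between 0 and 12.7 RPKM (median 0) in WT, where only T60 libraries were above 0. The difference was 5.42 (SE 0.65, adjusted p = 1.56e-05).

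FET3 (PAS_chr2-1_0787, chromosome 2, 1505101 to 1506990, plus strand) was at 297 and 577 RPKM at T0 and between 1049 and 1607 RPKM (median 1236) at pH 8.0 in rim101. The WT libraries held 485, 534 and 521 RPKM at T0 and between 107.5 and 364 RPKM (median 239.5) at pH 8.0. The strains overlapped at T0 and were fully apart at pH 8.0. FET3 rose in rim101 by 1.61 (limma adjusted p = 0.00416) and fell in WT by 1.26 (adjusted p = 0.00226), which gave a difference of 2.87 (SE 0.46, adjusted p = 0.000771). FTR1 was between 151 and 929 RPKM (median 476) at pH 8.0 in rim101 and between 19.5 and 218 RPKM (median 53.2) in WT. Its difference over pH 8.0 was called (2.85, adjusted p = 1.39e-05), while its averaged difference of 2.79 had an SE of 0.77 and did not pass (adjusted p = 0.146).

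FET4-1 (PAS_chr2-2_0009, chromosome 2, 2377352 to 2378917, minus strand) was the iron gene called lower. It was listed at 0 in all 8 rim101 libraries, and in WT at 1.95, 0 and 0 RPKM at T0 and between 5.05 and 37.3 RPKM (median 20.0) at pH 8.0. The limma adjusted p was 7.5e-05, and the call held in every fit without 1 library and every alternative. SIT1-1, a siderophore carrier gene, showed both ends: it was at 0 in both rim101 T0 libraries, against 4.85, 13.6 and 22.6 RPKM in WT. At pH 8.0 it was between 43.8 and 129.6 RPKM in rim101 and between 281 and 572 RPKM in WT. It was lower in rim101 over pH 8.0 (-2.39, adjusted p = 9.94e-06), and the averaged difference was 1.26 (adjusted p = 1).

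In all, 1 of 20 tested iron genes was called lower and 3 higher, and the list median was 0.08. FEP1, an iron-responsive GATA repressor gene in other yeasts, averaged 85.3 RPKM at T0 in rim101 and 84.2 RPKM in WT and was at 0 in all T15 and T30 libraries of both strains. At T60 it averaged 17.3 RPKM in rim101 and 1.20 RPKM in WT. Over pH 8.0 it was called higher in rim101 (1.14, limma adjusted p = 0.042), and its averaged difference was 1.09 (adjusted p = 1). FRE1 rose in both strains, by 3.86 in rim101 and 3.10 in WT, with a difference of 0.75 (adjusted p = 1).

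**Figure D4:**
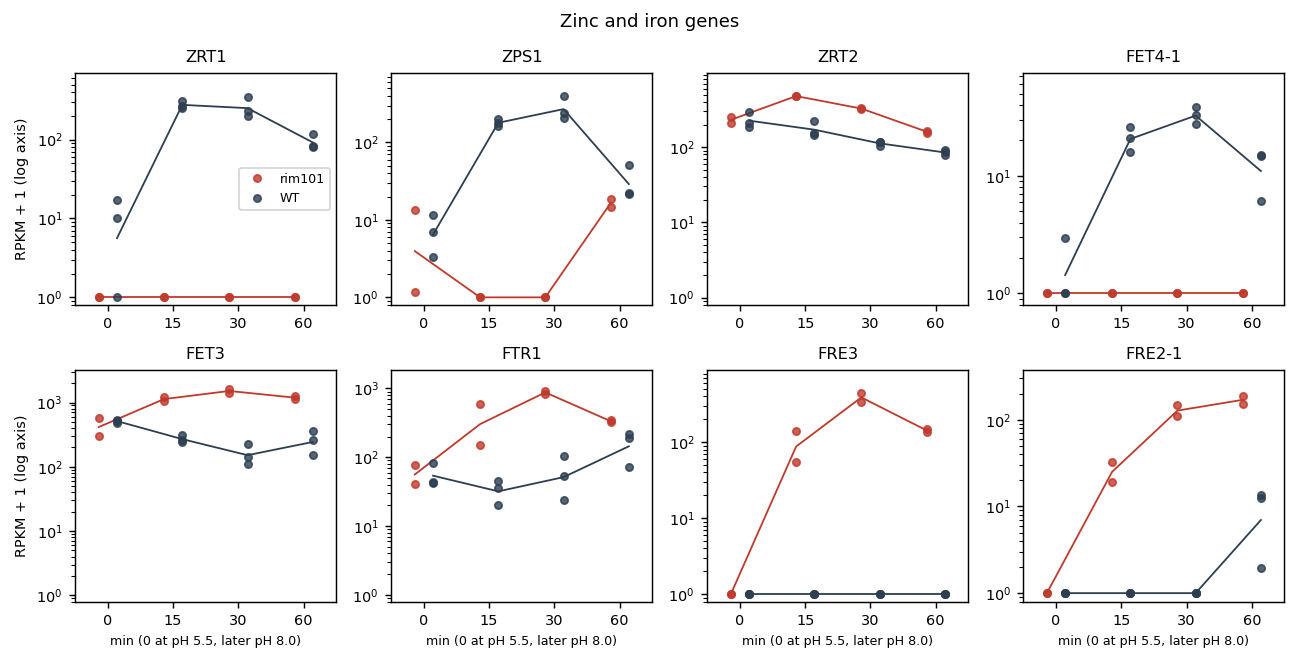
Levels of 8 zinc and iron genes in every rim101 and WT library (vertical axis, RPKM + 1 on a log axis; horizontal axis, time in min). Points are libraries and lines join the group means on the log2 scale. ZRT1 and FET4-1 are at 0 RPKM throughout in rim101, FRE3 is at 0 RPKM throughout in WT, and ZPS1 comes close between the strains at 60 min.

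MIT1 (PAS_chr3_0251, chromosome 3, 504046 to 505203, plus strand) was detected in WT and not in rim101. Its product is the zinc-cluster activator of methanol genes in K. phaffii. It was listed at 0 in all 8 rim101 libraries. In WT it was at 3.17, 0 and 0 RPKM at T0 and between 84.6 and 285.7 RPKM (median 157) at pH 8.0, with a mean of 268 RPKM at T15 and 114.5 RPKM at T60. The limma adjusted p was 1.62e-06, and the call held in every fit without 1 library and every alternative. The other 22 tested genes on the list of methanol use and peroxisomes were not called, and the list median was 0.14. DHG2, annotated as peroxisomal and called higher (below), is not on that list. The transcription factor gene MXR1-1 had a difference of -0.15 (adjusted p = 1), and the formaldehyde dehydrogenase gene FLD had one of 0.14 (adjusted p = 1).

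In 4 called genes, ROP100, PAS_chr1-3_0120, PAS_chr4_0077 and PAS_chr2-2_0208, the strain difference was larger in size at T0 than over pH 8.0. ROP100, annotated as a zinc-finger protein (PAS_chr3_0554, chromosome 3, 1056655 to 1059447, minus strand), was at 5.01 and 6.11 RPKM at T0 in rim101, against 0.62, 0 and 0.70 RPKM in WT. At pH 8.0 it was between 11.9 and 21.3 RPKM (median 16.4) in rim101 and between 10.9 and 25.4 RPKM (median 15.0) in WT. The strains were apart at T0 (2.22, limma adjusted p = 0.00459) and overlapped at pH 8.0 (0.06, adjusted p = 0.945). The averaged difference of -2.17 (SE 0.42, adjusted p = 0.00606) lost its call without rim101 T0 replicate 2 (adjusted p = 0.0976) and in 3 of 10 alternatives: a pseudocount of 5, quantile normalization and leaving out the libraries of higher median (-2.38, adjusted p = 0.18).

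PAS_chr1-3_0120, uncharacterized, was at 10.5 and 7.22 RPKM at T0 in rim101 against 3.87, 1.62 and 0 RPKM in WT, with medians of 23.3 RPKM in rim101 and 25.1 RPKM in WT at pH 8.0. Neither end passed the test by itself (2.06 at T0, limma adjusted p = 0.0902, and -0.27 over pH 8.0, adjusted p = 0.773). Its averaged difference was -2.33 (SE 0.52, limma adjusted p = 0.0248) and lost its call in 5 of 20 fits without 1 library (WT T0 replicate 3, either rim101 T0 library, rim101 T30 replicate 2 and rim101 T60 replicate 1) and in 5 of 10 alternatives. PAS_chr4_0077, annotated with a bHLH domain, was at 0 in both rim101 T0 libraries, against 7.73, 9.58 and 9.52 RPKM in WT. At pH 8.0 it was between 34.1 and 207.4 RPKM (median 83.9) in rim101 and between 119.9 and 393 RPKM (median 212) in WT. Its level was thus lower in rim101 at both ends (-3.31 at T0, adjusted p = 4.34e-05, and -1.25 over pH 8.0, adjusted p = 0.000591), and its averaged difference was positive (2.06, SE 0.44, adjusted p = 0.0165). The size of that difference depends on the added 1 RPKM, since both rim101 T0 libraries were at 0. It ranged from 0.28 to 8.51 over the alternatives and the authors' deposited values. The call was lost without WT T0 replicate 3 or either rim101 T0 library, with a highest adjusted p of 0.128 among these, and in 3 of 10 alternatives.

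**Figure D5:**
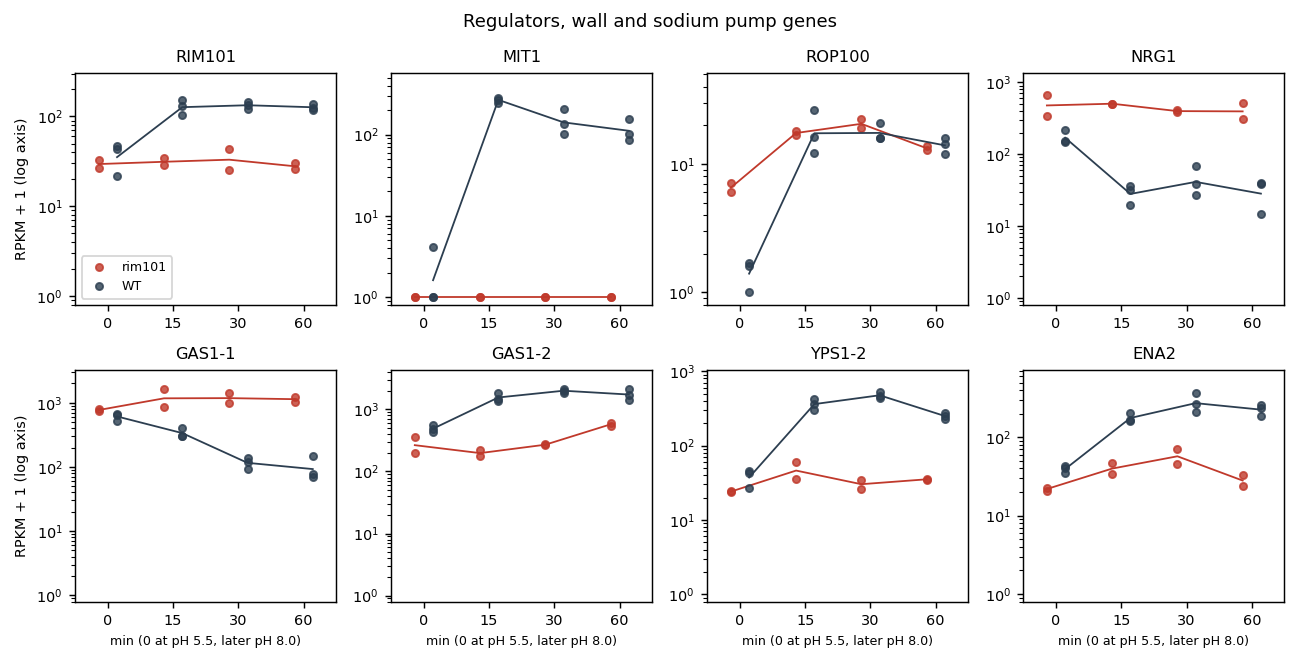
Levels of 4 regulator genes, 2 GAS1 copies, YPS1-2 and ENA2 in every rim101 and WT library (vertical axis, RPKM + 1 on a log axis; horizontal axis, time in min). Points are libraries and lines join the group means on the log2 scale. MIT1 is at 0 RPKM throughout in rim101, ROP100 differs at T0 and overlaps at pH 8.0, and GAS1-1 and GAS1-2 part in opposite directions.

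The wall genes GAS1-1 and GAS1-2 encode beta-1,3-glucanosyltransferases, which remodel wall glucan, and lie side by side on chromosome 1 with 722 bases between them. GAS1-1 (PAS_chr1-3_0226, 420955 to 422571) was at 729.8 and 810.4 RPKM at T0 in rim101 and between 844 and 1622 RPKM (median 1139) at pH 8.0. WT had 675, 527 and 641 RPKM at T0 and between 68.8 and 404 RPKM (median 138) at pH 8.0. The WT libraries were low at pH 8.0, and the strains did not overlap there. The difference was 2.59 (SE 0.32, limma adjusted p = 1.58e-05), with 1.47 at T15, 3.02 at T30 and 3.28 at T60.

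GAS1-2 (PAS_chr1-3_0227, 423294 to 424901) was at 197 and 356 RPKM at T0 and between 176 and 605 RPKM (median 269) at pH 8.0 in rim101, against 434, 487.5 and 554 RPKM at T0 and between 1384 and 2172 RPKM (median 1849) at pH 8.0 in WT. Every WT library at pH 8.0 was above every rim101 library. Its difference was -1.61 (SE 0.24, limma adjusted p = 0.000266), with -2.10 at T15, -2.01 at T30 and -0.71 at T60, and was not called with median-ratio scaling or without the libraries of higher median (-1.48, adjusted p = 0.0715). Of 30 cell wall genes tested these 2 were called, and the list median was -0.15.

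YPS1-2 (PAS_chr3_1157, chromosome 3, 341523 to 343303, minus strand) encodes a member of the yapsin family, aspartyl proteases of the cell surface. It was at 23.2 and 22.9 RPKM at T0 and between 25.2 and 59.4 RPKM (median 34.1) at pH 8.0 in rim101, against 44.7, 25.7 and 41.3 RPKM at T0 and between 225 and 521 RPKM (median 365) at pH 8.0 in WT. Every WT library at pH 8.0 was above every rim101 library. The difference was -2.63 (SE 0.26, limma adjusted p = 9.32e-07), and it was called in all fits without 1 library and all alternatives. It was the single call among 16 proteases tested.

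SAC7, which encodes a GTPase-activating protein for Rho1, was at 2.55 and 0 RPKM at T0 and between 0 and 1.10 RPKM (median 0) at pH 8.0 in rim101. In WT it was at 1.70, 0 and 0 RPKM at T0 and between 2.81 and 13.4 RPKM (median 5.97) at pH 8.0. These levels are close to the added 1 RPKM, and the strains did not overlap at pH 8.0. Its difference of -2.996 (SE 0.71, limma adjusted p = 0.042) lost its call in 13 of 20 fits without 1 library, with a highest adjusted p of 0.55, and in 6 of 9 alternatives. It held without WT T0 replicate 1, WT T15 replicate 2, WT T30 replicate 2, WT T60 replicate 3, rim101 T0 replicate 2, rim101 T15 replicate 1 or rim101 T30 replicate 1. Of 15 tested genes of the cell integrity pathway it was the one called. PTP3, a protein phosphatase gene, was lower over pH 8.0 (-1.09, adjusted p = 0.00707) with an averaged difference of -1.25 that did not pass (adjusted p = 0.784).

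ENA2 (PAS_chr1-1_0428, chromosome 1, 1347055 to 1350324, minus strand) encodes a sodium-exporting ATPase. It was at 19.9 and 21.9 RPKM at T0 and between 23.2 and 70.4 RPKM (median 38.8) at pH 8.0 in rim101, against 34.02, 42.3 and 39.1 RPKM at T0 and between 163 and 363 RPKM (median 207.7) at pH 8.0 in WT. The gene rose in both strains, by 0.87 in rim101 (limma adjusted p = 0.0212) and 2.49 in WT, and the libraries did not overlap at pH 8.0. The difference was -1.62 (SE 0.31, adjusted p = 0.00585), -1.30 at T15, -1.41 at T30 and -2.16 at T60, and was not called without rim101 T0 replicate 2 (adjusted p = 0.0909). Of 22 tested genes of sodium, potassium and proton transport it was the one called. NHA1, a sodium/proton antiporter gene, was between 14.2 and 33.0 RPKM at pH 8.0 in rim101 and between 0 and 7.16 RPKM in WT (3.21, adjusted p = 1.25e-05). Its averaged difference of 2.31 did not pass (adjusted p = 0.656). The plasma membrane proton pump gene PMA1 had a difference of -0.21 (SE 0.17, adjusted p = 1).

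Several transporter and enzyme genes were called higher. DHG2 (PAS_chr4_0338, chromosome 4, 691450 to 692223, minus strand), annotated as a peroxisomal dienoyl-CoA reductase, was at 24.8 and 22.4 RPKM at T0 and between 67.4 and 133 RPKM (median 85.4) at pH 8.0 in rim101. WT had 28.2, 72.3 and 25.9 RPKM at T0 and between 22.4 and 42.0 RPKM (median 29.7) at pH 8.0. It rose in rim101 alone by the test of each strain (1.90, limma adjusted p = 5.19e-05, against -0.32 and 0.289 in WT), with a difference of 2.21 (SE 0.36, adjusted p = 0.000771). It lost the call without the libraries of higher median (2.35, adjusted p = 0.0829). DHG2 lies 448 bases from PHO84-1 on the same strand. TMA10, a ribosome-associated protein gene in S. cerevisiae, was at 47.5 and 22.9 RPKM at T0 and between 6.56 and 29.9 RPKM at pH 8.0 in rim101. In WT it was at 161, 9.18 and 61.6 RPKM at T0 and at 0 in all 9 libraries at pH 8.0. It was called with an adjusted p of 0.0151 and lost the call without WT T0 replicates 1 or 3 or rim101 T0 replicate 2 (highest adjusted p 0.246) and in 3 of 10 alternatives.

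The uncharacterized gene PAS_chr2-2_0208 was at 0 in both rim101 T0 libraries, against 2.93, 2.08 and 7.83 RPKM in WT, and between 39.4 and 226 RPKM (median 115) at pH 8.0 in rim101, against 16.3 and 58.2 RPKM as lowest and highest in WT. The strains differed by -2.25 at T0 (adjusted p = 0.401) and by 1.59 over pH 8.0 (adjusted p = 0.0071). It rose in both strains, with a difference of 3.84 (SE 0.71, limma adjusted p = 0.00385) that was not called with replicates 1 and 2 alone or without the libraries of higher median (3.47, adjusted p = 0.312). PAS_chr2-1_0270, annotated as a plasma membrane protein of protoporphyrin uptake and heme efflux, was at 0 in all 12 WT libraries. In rim101 it was at 0 and 19.3 RPKM at T0 and between 22.0 and 214.2 RPKM (median 78.4) at pH 8.0 (adjusted p = 0.00569). That call was lost without rim101 T0 replicate 1 (adjusted p = 0.131) and in 5 of 10 alternatives.

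Another 5 called genes averaged under 10 RPKM and are named here after their values were seen. The multidrug carrier gene QDR3 was between 4.07 and 14.5 RPKM at pH 8.0 in rim101 and at 0 in all WT libraries at pH 8.0, though it was between 3.34 and 7.35 RPKM in WT at T0 (limma adjusted p = 0.00039). PAS_chr2-2_0047, a major facilitator carrier gene, had the same pattern, with 1.42 to 14.04 RPKM at pH 8.0 in rim101 against 0 in WT (adjusted p = 0.000637). YOR1-1, an ABC transporter gene, and PAS_chr1-4_0410, annotated as a regulator of mannosylphosphate transfer, were at 0 in all 12 WT libraries. They reached 26.3 and 56.4 RPKM in rim101, with adjusted p of 0.000155 and 0.000797, and PAS_chr1-4_0410 was not called with a pseudocount of 0.1 (adjusted p = 0.12). The neighbouring copy YOR1-2 was not called on the averaged difference (2.06, limma adjusted p = 0.0634). It was higher in rim101 over pH 8.0 (2.88, adjusted p = 1.14e-08). The phosphoglucomutase gene PRM15 was between 7.02 and 18.9 RPKM at pH 8.0 in rim101 and between 0 and 3.43 RPKM in WT. Its difference of 2.59 (SE 0.59, adjusted p = 0.0273) lost its call in 8 of 20 fits without 1 library (WT T0 replicates 1 and 2, both rim101 T0 and both rim101 T60 libraries, and replicate 2 of rim101 T15 and T30). It also lost it in 3 of 9 alternatives: median-ratio scaling, WT and rim101 libraries alone and leaving out the libraries of higher median (1.45, adjusted p = 0.438).

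A further 3 uncharacterized genes were called lower. PAS_chr4_0359 (chromosome 4, 727983 to 728618, plus strand) was at 0 in both rim101 T0 libraries and between 0 and 19.7 RPKM (median 7.70) at pH 8.0, against 11.3, 6.403 and 3.55 RPKM at T0 and between 160.3 and 1402 RPKM (median 726) at pH 8.0 in WT. PAS_chr4_0363 (chromosome 4, 734110 to 735945, minus strand) was between 0 and 28.4 RPKM at pH 8.0 in rim101 and between 48.5 and 199 RPKM in WT. In neither gene did the strains overlap at pH 8.0. The differences were -4.43 (SE 0.97, limma adjusted p = 0.0211) and -3.93 (SE 0.89, adjusted p = 0.0267), which lost their calls without either rim101 T0 library, without WT T0 replicate 3 and without the libraries of higher median (-2.09 and -1.72, adjusted p = 1 for both). PAS_chr4_0363 also lost its call without WT T0 replicate 2 or rim101 T60 replicate 2, and each gene lost it in 6 of 10 alternatives.

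These genes lie near each other, with 5491 bases and the genes PAS_chr4_0360 and PAS_chr4_0361 between them. Those neighbours were lower in rim101 over pH 8.0, by -2.31 (limma adjusted p = 0.0142) and -3.41 (adjusted p = 1.13e-06), and were not called on the averaged difference (-2.12 and -1.83, adjusted p of 1 and 0.987). PAS_chr3_0486 was between 0 and 78.9 RPKM (median 24.2) at pH 8.0 in rim101 and between 37.9 and 1241 RPKM (median 442) in WT, with overlap at the edges. Its difference was -4.19 (SE 0.88, adjusted p = 0.0142), not called without either rim101 T0 library (highest adjusted p 0.15) and in 4 of 10 alternatives. By chromosome, 6 of 1271 tested genes were called on chromosome 1, 8 of 1136 on chromosome 2, 8 of 996 on chromosome 3 and 10 of 823 on chromosome 4. None of the 32 spans overlaps another gene.

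Most functional lists had no called member. Of 28 lists, 18 had none, with 633 tested members and list medians between -0.61 and 0.25. The 135 ribosome biogenesis genes, which encode factors that assemble ribosomes, held the lowest of these medians. In WT 100 of them rose at an adjusted p under 0.05 and at least 2-fold (16.4% of all genes), and in rim101 18 did (5.82% of all genes). Their median response was 2.12 in WT and 1.43 in rim101 (0.49 and 0.47 for all genes). The median standard error of the response over all genes was 0.36 in WT and 0.45 in rim101, so the threshold was harder to reach in rim101. None of the 135 genes passed the test of the difference by limma, and 5 had an unadjusted p under 0.05. The median difference was -0.61 averaged, -0.20 at T15, -0.12 at T30 and -1.56 at T60, where the median of all genes was -0.46. Over T15 and T60 alone it was -0.84 with all libraries (-0.13 for all genes) and -0.64 without the libraries of higher median (-0.10 for all genes), which include WT T60 replicates 1 and 2 and no rim101 T60 library. Whether those libraries take part in the T60 value was not tested beyond this. In glycolysis, 11 of 16 genes fell in rim101 at an adjusted p under 0.05 and at least 2-fold (2.11% of all genes). In WT 11 of 16 did (3.22% of all genes). None of the glycolysis genes was called on the difference, and the median difference was -0.01. The 75 cytosolic ribosomal protein genes tested had a median of 0.07 with none called.

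The test of whether the strain difference varied over the 3 times at pH 8.0 called 1 gene (0.0237%), ZPS1, by limma's moderated F test (adjusted p = 0.00393), while 398 genes (9.42%) had an unadjusted p under 0.05. The count was 0 without rim101 T60 replicate 1 or replicate 2 and 10 without WT T60 replicate 3. For PHO89, PHO84-1, FET3 and GAS1-1 the adjusted p of this test was 0.404, 0.404, 0.404 and 0.146. A p that misses the threshold does not show that their differences were constant.

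The crz1 contrast, formed the same way with the same WT libraries, called 0 genes by limma, with 99 genes (2.34%) at an unadjusted p under 0.05 and a median standard error of 0.52. The crz1 minus WT differences were 0.19 for PHO89, 0.56 for PHO84-1, -0.64 for PHO84-2, -0.03 for FET3 and -0.34 for GAS1-1. They were -0.31 for GAS1-2, -0.37 for YPS1-2, -0.24 for ENA2 and -0.64 for RIM101, and all of these had an adjusted p of 1. Larger crz1 differences, also not called, were 1.90 for ZPS1 and 1.57 for PAS_chr3_0486, opposite in sign to those of rim101. Those of PAS_chr2-2_0208 (1.40) and ROP100 (-1.02) had the same sign as in rim101. The direct comparison of rim101 with crz1 shares the rim101 libraries and leaves WT out of the difference, though not out of the estimate of spread. It called 54 genes (1.28%). It gave -4.52 for PHO89 (adjusted p = 5.04e-05), 7.24 for PHO84-1 (5.45e-06), 6.42 for PHO84-2 (6.74e-10), 2.89 for FET3 (0.000559), 2.93 for GAS1-1 (3.02e-06), -2.26 for YPS1-2 (6.32e-06) and -1.38 for ENA2 (0.0219). It was not passed by RIM101 (-1.17, adjusted p = 0.0526), ROP100 (-1.15, 0.437), PAS_chr4_0077 (1.69, 0.0593) or PAS_chr2-2_0208 (2.44, 0.134).

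The same contrast was formed from the log2 fold changes over WT T0 in the authors' deposited table, which rest on the same libraries and give no error for it. In the authors' deposited table it was -4.07 for PHO89, 7.57 for PHO84-1, 2.70 for FET3, 2.58 for GAS1-1, -1.70 for GAS1-2, -2.56 for YPS1-2, -1.59 for ENA2 and -1.70 for RIM101. Some genes with libraries at 0 differed further: the authors' deposited table gave -9.27 for ZPS1, 12.5 for FRE2-1, 8.51 for PAS_chr4_0077 and 0.00391 for PAS_chr4_0359, against -4.75, 5.42, 2.06 and -4.43 in the limma fit.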

How the data were processed

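Per the labels, poly-A RNA was made into libraries that do not mark the strand, so a read in a span shared by 2 genes cannot be assigned by strand. Bowtie2 and edgeR are named, without versions, in the submitters' processing notes. The genome build was not given in the sources used here. The authors deposited RPKM for 5040 genes, and a second deposited table with log2 fold changes over WT T0, p-values and adjusted p-values for 4581 genes; its log2 values were only set beside the results. Gene names come from that table, and coordinates as deposited equalled RefSeq's for all 5040 identifiers.

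No count table was used here; depth was read from the spacing of low values, of which 94.2% to 98.1% lay within 0.1 of a whole read. The tests used log2(RPKM + 1), a scale that shrinks changes near 1 RPKM, on the 4226 genes with a mean of at least 1 RPKM over 32 libraries. limma 3.58.1 (R 4.3.3) fitted all 12 groups with an intensity trend (20 residual degrees of freedom, two-sided), with Benjamini-Hochberg adjustment over all genes tested. Since rim101 has 2 libraries per group, its error rests mostly on the other groups' spread. The fit was also run on simulated data, with normal noise and the same shift at all 3 times. That run does not check groups listed at 0. Tables and plots used Python 3.11.15.

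Genes named are RIM101, the 14 most negative and 14 most positive called differences with a mean of at least 10 RPKM over the 20 libraries and 1 sign at all times, and up to 3 called members per list; others are marked or belong to a list described. The lists were written by hand from yeast gene names. The contrast, genes and lists were chosen with earlier results of these data known. Alternatives were other pseudocounts, filters, scalings and sets of libraries, a replicate block, and each library left out.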

Additional observations from a re-analysis of the deposited data

Results flagged for a closer look

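The ZPS1 difference between rim101 and WT varied over the 3 times at pH 8.0, by limma's moderated F test over all genes (adjusted p = 0.00393). That test called 0 genes without rim101 T60 replicate 1 or replicate 2. The difference in change since T0, rim101 minus WT, was -6.78 at T15, -7.36 at T30 and -0.11 at T60 on the log2(RPKM + 1) scale. The sizes at T15 and T30 depend on the added 1 RPKM, since all 4 rim101 libraries there were listed at 0.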

How the results depend on the processing

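The averaged difference called 25 genes with a pseudocount of 0.1, 33 with 5, 33 with no filter, 26 with a mean of at least 10 RPKM, 26 with median-ratio scaling, 26 with quantile normalization, 25 with WT and rim101 libraries alone and 25 with replicates 1 and 2 in both strains, against 32. Without libraries of higher median it called 19 (8 lower, 11 higher). The lower genes numbered 9 with a pseudocount of 0.1 and 8 with quantile normalization. With WT and rim101 libraries alone, 12 genes were called at T15, 21 at T30 and 12 at T60, and T60 gave 13 with a mean of at least 10 RPKM and 13 with median-ratio scaling. That mean filter left 66 genes over pH 8.0. At T0 the count was 11 with a pseudocount of 0.1, 0 with 5, 9 with quantile normalization and 3 with replicates 1 and 2. The crz1 contrast called 2 with a pseudocount of 5, 3 with no filter and 1 with quantile normalization. The test of variation over time called 3 with a pseudocount of 0.1, 4 with 5, 17 with no filter, 2 with quantile normalization and 3 with replicates 1 and 2. PAS_chr4_0359 changed sign in the authors' deposited table, at 0.00391, and the cause was not tested.

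Same-numbered libraries of the strains deviated from their group means with a correlation over 0.1 in 5 of 8 pairs. The median correlation was 0.21 (-0.309 to 0.654) in these pairs and -0.09 (-0.654 to 0.537) in the other 16. With 2 rim101 libraries per group, their deviations are equal and opposite, so the other pairs repeat these values with the sign reversed. The 2 sets of pairs are therefore not independent. These values do not settle whether the numbers mark pairs, and the main fit did not pair them. With a replicate block the averaged difference called 37 genes (18 lower, 19 higher, all 32 included), the crz1 contrast 2 and the test over time 5.

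Leaving out 1 library at a time gave 22 to 46 genes for the averaged difference, 7 to 26 lower and 15 to 20 higher. It gave 11 to 26 at T15 (11 without rim101 T15 replicate 2, 12 without rim101 T0 replicate 1), 21 to 38 at T30 (21 without rim101 T30 replicate 1) and 10 to 33 at T60. At T60 the low counts came without either rim101 T60 library (10 and 12), WT T60 replicate 1 (14), WT T60 replicate 2 (15) or rim101 T0 replicate 1 (15). It gave 86 to 114 over pH 8.0, 33 to 66 for rim101 against crz1 (33 without rim101 T0 replicate 2), 0 to 2 for crz1, 0 to 10 for the test over time and 14 to 21 called list members. At T0 it gave 3 to 8, with 8 without WT T0 replicates 1 or 2 or rim101 T15 replicate 1. The T0 count was 3 in most of these fits, including every fit without 1 WT library at pH 8.0. Of the 32 genes, 19 kept their call in all 20 such fits, 13 in all alternatives and 12 in both. Of 954 refits of single genes with a test, 845 left the call as it was and 109 lost it. At these depths 1 RPKM in a gene of 1 kilobase rests on 5.58 to 16.54 reads, which limits genes such as SAC7.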
